A study of Mus musculus with 12 samples.

Results

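The interferon response genes followed here are 42 genes that cells turn on after interferon, 26 of them known as targets of type I interferon and 16 as targets of interferon gamma. Each was read from the probe set that the platform table gives to its symbol alone, and from the one with the highest mean over the 12 arrays where a gene had several. Of the 42 members, 39 had such a probe set, among 18193 genes named in all, and 38 passed a filter on low signal, among 12820 genes tested. These were 23 of the 26 type I targets and 15 of the 16 interferon gamma targets. Isg15 and Tgtp1 were present only on probe sets that the table shares between genes, and no probe set of the table used here is named for Ifi44. Mx2 did not pass the filter, with signals between 11.9 and 30.2 on every array except LDC male 2, where it was 127.1.

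The livers came from C57BL/6J mice at 30 weeks of age, with 3 arrays in each of 4 groups, females and males that were either controls or exposed to LDC. LDC is low-dose cadmium, given in the drinking water at 100 nM continuously from before the parents mated, and control mice drank water alone, so that all 4 groups share strain, age and tissue. The arrays of a group are called biological replicates by their labels, but litters and cages are not given, so the p-values measure the spread between these arrays. The comparisons ask whether the exposure moved interferon targets in either sex, and how the sexes differ with and without it. Signals are MAS 5.0 values on a linear scale, and the small number of arrays limits the precision of every value. The hepatocyte marker Alb, the main plasma protein, gave between 44112 and 58131 on all arrays. Xist, the RNA of the inactive X chromosome, ran from 16258 to 18731 on the 6 female arrays and from 72.3 to 134.4 on the 6 male arrays.

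Type I interferons, which most cells can make when they sense viral nucleic acid, bind the receptor of Ifnar1 and Ifnar2 and act through a complex with Stat2 and Irf9 on promoters that hold an interferon-stimulated response element. Interferon gamma comes mostly from T cells and natural killer cells, binds the receptor of Ifngr1 and Ifngr2, and acts at gamma-activated sites. In liver both hepatocytes and resident macrophages respond, and many targets answer to either interferon, so the lists name the leading inducer and not a sole one.

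The promoters show what the members share in sequence. Of the 42 members, 33 were matched by symbol to 40 RefSeq promoters of build GRCm38.p6, each from 250 bases before to 50 after a transcription start, and Mx1, Mx2, Oas2, Dhx58, Ifi27, Parp14, Usp18, Gbp6 and Iigp1 were not matched. Both strands were searched for GAAANNGAA, the spaced GAAA and GAA repeat of the response element, and for TTCNNNGAA, the palindrome of the gamma-activated site. These motifs can overlap each other. The first was found in 19 of the 40 promoters (47.5%), against 8.56% of all 32851 promoters of the same length, in 11 of 23 promoters of type I targets and in 8 of 17 of interferon gamma targets. The second was found in 12 of the 40 (30.0%), against 8.3% of all, in 6 of 23 and in 6 of 17. The stretches below lie before the start, run 5′ to 3′ along the strand of the gene, and show 3 of the interferon gamma targets and 1 type I target whose values are given further on, with every match in capitals. They were chosen to show a promoter with both motifs close together, another with the palindrome repeated, and promoters with the palindrome alone or the repeat alone.
Igtp (chr11:58199486-58199555, + strand): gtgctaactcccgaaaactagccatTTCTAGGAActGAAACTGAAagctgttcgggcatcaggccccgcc
Gbp7 (chr3:142530205-142530317, + strand): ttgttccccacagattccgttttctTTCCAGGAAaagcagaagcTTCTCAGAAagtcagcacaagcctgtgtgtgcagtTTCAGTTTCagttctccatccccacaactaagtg
Irf1 (chr11:53769899-53769957, + strand): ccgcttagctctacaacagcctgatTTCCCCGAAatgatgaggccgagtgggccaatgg
Ifit1 (chr19:34640755-34640838, + strand): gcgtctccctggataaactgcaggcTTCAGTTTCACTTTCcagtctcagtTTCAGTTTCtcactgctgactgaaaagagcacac
In Igtp the palindrome and the repeat are separated by a pair of bases. Gbp7 holds the palindrome at 2 places and the repeat once, read on the opposite strand. Ifit1 holds the repeat 3 times, all on the opposite strand. A match is a description of the letters and not of a factor bound there.

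Control female 1 stood apart on these genes, and it is stated where a call or a median of the members changed without it. All 15 interferon gamma targets tested had their highest signal of the 12 arrays in control female 1, as did 12 of the 23 type I targets, together 27 of 38, where 15.8% of all genes had theirs there. Relative to the geometric mean of control females 2 and 3, the interferon gamma targets stood in control female 1 at a median of 2.56-fold (range 1.70 to 5.34), with 13 of 15 above 2-fold. Igtp, a GTPase that acts on the vacuoles of intracellular parasites, was at 5.34-fold and the guanylate-binding protein Gbp6 at 5.31-fold. The chemokine Cxcl9, which draws T cells, was at 4.25-fold. The type I targets stood at a median of 1.20-fold, with 2 of 23 above 2-fold, Oasl2 at 3.25-fold and Ifit2 at 2.02-fold. Over all genes the median was 1.02-fold and 6.48% were above 2-fold. At the other end, 27 of 38 members had their lowest signal in a control male, 14 type I and 13 interferon gamma targets, against 27.9% of all genes. Whole liver was measured, so fewer cells of a type and less RNA per cell cannot be told apart.

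**Figure D1:**
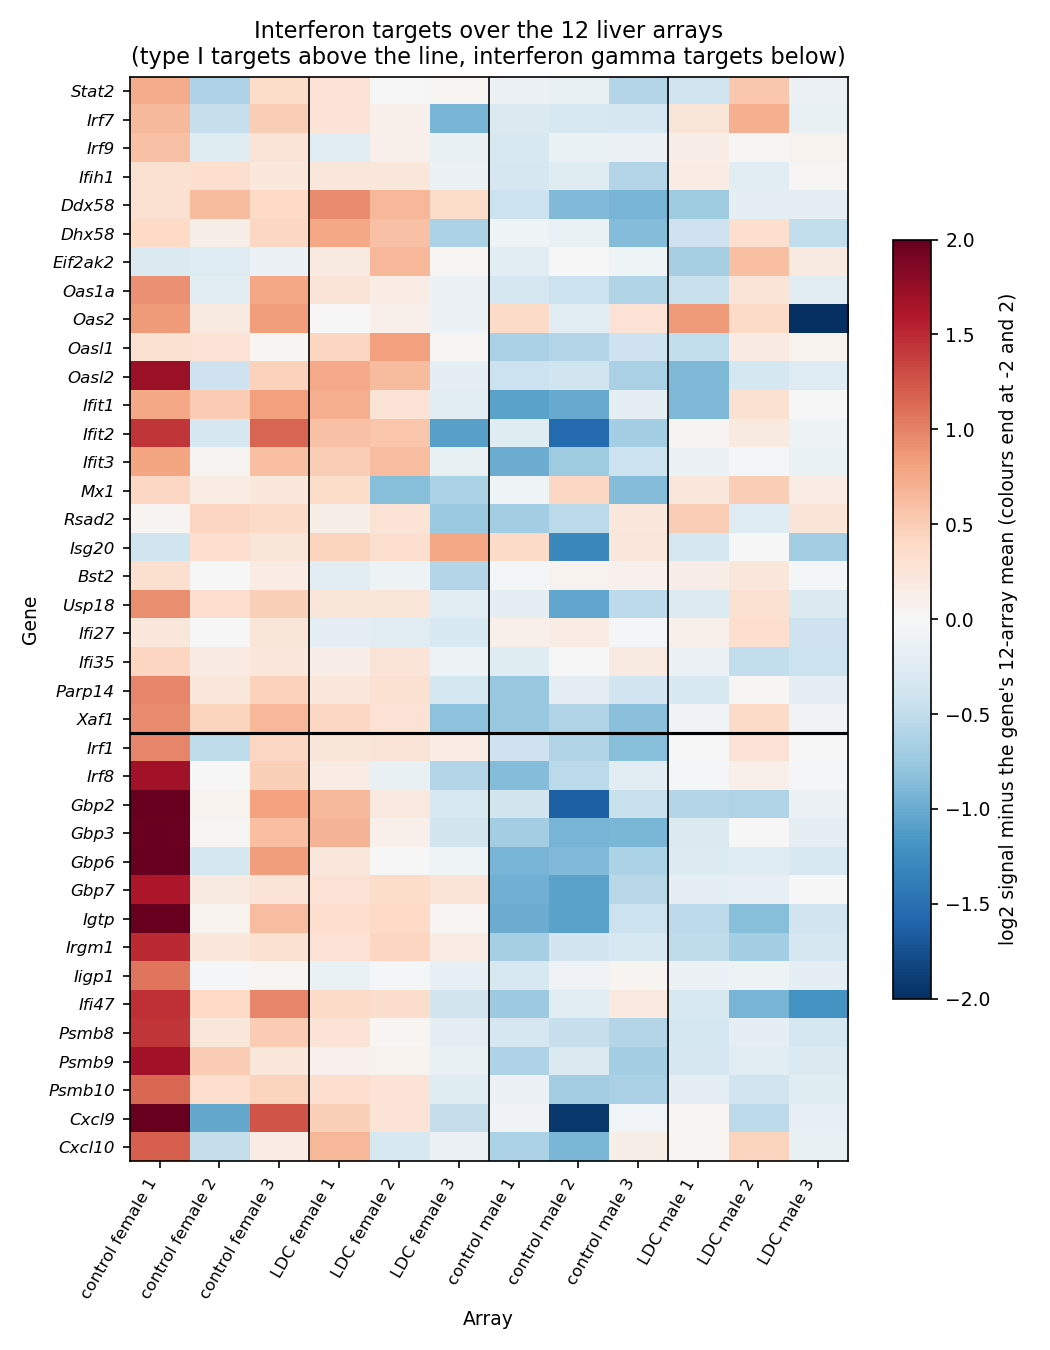
Log2 signal of the 38 members tested on each of the 12 arrays, minus the mean of the gene over the 12 arrays (colours end at -2 and 2); rows are genes, columns are arrays by group. The interferon gamma targets, below the line, are highest in control female 1 in all 15 cases, and most members are low in the control males.

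The sexes differed without exposure. Between the control groups, 20 of the 38 members were higher in females at an adjusted p under 0.05 (limma, Benjamini-Hochberg over 27022 probe sets), and 0 were higher in males. Of all genes, 9.42% passed this test and 5.59% passed it with the higher level in females. The 20 were 12 of the 15 interferon gamma targets and 8 of the 23 type I targets. The median log2 difference, males minus females, was -1.27 for the interferon gamma targets, which is 2.40-fold higher in females, -0.67 or 1.60-fold for the type I targets, and -0.06 over all genes. In 21 of 38 members every control female lay above every control male, 11 interferon gamma and 10 type I targets, as in 15.7% of all genes.

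These counts depended on the arrays used. Without control female 1, 14 members were called, all of them among the 20, 8 interferon gamma and 6 type I targets, where 6.26% of all genes were called, and the medians were -0.87 and -0.63. Without control male 1, and likewise without control male 2, 12 were called, and the share of all genes was not counted in those fits. With eBayes run without the intensity trend 9 were called, 4 of 15 interferon gamma and 5 of 23 type I targets, against 4.7% of all genes. In that fit Gbp2, Gbp3, Gbp6, Igtp, Irgm1, Ifi47, Irf1 and Irf8 lost their calls, as did Ifit1, Oas1a and Parp14. A Student's t-test was also run, which the paper names for body composition and metabolic results and not for the arrays (the methods' t-test). It called 0 members and 4 of all 12820 genes, although 14 members had an unadjusted p under 0.05 by it, as had 16.6% of all genes. With any single array dropped, 10 of the 20 members were called every time.

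Among the interferon gamma targets, the guanylate-binding proteins, large GTPases that attack the membranes around intracellular pathogens, were all called. Gbp2 gave 2712, 558 and 922 in the control females, 831, 608 and 423 in the LDC females, 413, 170.3 and 389 in the control males and 353, 349 and 491 in the LDC males. Its control groups did not overlap, and the level was 3.71-fold higher in control females (log2 difference, males minus females, -1.89 ± 0.47, SE; adjusted p = 0.0237), a call lost without control female 1 or control male 2 (highest adjusted p = 0.105). Gbp3 gave 1892, 489.8 and 730.2 in the control females, 771, 521 and 376 in the LDC females, 298, 255 and 257 in the control males and 396, 484 and 424 in the LDC males. Every control male lay below every other array of the gene, and control females were 3.26-fold higher (-1.70 ± 0.38; adjusted p = 0.0123). Gbp6 gave 5082, 634 and 1446 in the control females, 941, 805 and 764 in the LDC females, 424, 439 and 519 in the control males and 670.1, 674 and 649 in the LDC males. Control female 1 was far above the rest, the control groups did not overlap, and the level was 3.64-fold higher in control females (-1.86 ± 0.48; adjusted p = 0.0283), a call lost without control female 3 or any 1 of the control males (highest adjusted p = 0.0832). Gbp7, the promoter of which is printed above, gave 4132, 1526 and 1608 in the control females, 1644, 1737 and 1604 in the LDC females, 688, 640.4 and 914 in the control males and 1181, 1201 and 1346 in the LDC males. The control males were again the lowest group, without overlap with any other, and control females were 2.93-fold higher (-1.55 ± 0.28; adjusted p = 0.00349). The second probe sets of Gbp6 and Gbp7 were called in the same direction (adjusted p = 0.015 and 0.00587). That of Gbp2 had the same sign and was not called (-1.71; adjusted p = 0.0742). Guanylate-binding proteins are close paralogs, and signal shared between them cannot be separated beyond the assignment of the platform table.

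The immunity-related GTPases, which act with them on such vacuoles, were called in 3 of 4 cases. Igtp gave 19542, 3026 and 4426 in the control females, 3649, 3805 and 2961 in the LDC females, 1452, 1369.6 and 2147 in the control males and 2006, 1603 and 2209 in the LDC males. All females lay above all males, in controls and in LDC mice, and control females were 3.94-fold higher (-1.98 ± 0.46; adjusted p = 0.0175), which was lost without control male 1 or control male 2 (highest adjusted p = 0.0678). Irgm1, a regulator of the family, gave 5014, 2044 and 2198 in the control females, 2174, 2397 and 1969 in the LDC females, 1119.8, 1355 and 1422 in the control males and 1242, 1106 and 1409 in the LDC males. Here too no female array overlapped a male one, with 2.19-fold higher levels in control females (-1.13 ± 0.25; adjusted p = 0.0139, and 0.0512 without control male 1). Ifi47 gave 4368, 2092 and 3145 in the control females, 2082, 2043 and 1239 in the LDC females, 963, 1363 and 1824 in the control males and 1274, 835 and 697 in the LDC males. Its control groups did not overlap and control females were 2.29-fold higher (-1.20 ± 0.30; adjusted p = 0.0251), a call lost without control female 1, control female 3, control male 1 or control male 2 (highest adjusted p = 0.107). Iigp1, another effector GTPase of the family, gave 35285, 16407 and 17239.9 in the control females, 15185, 16226 and 14940.4 in the LDC females, 13359.7, 15862 and 17368 in the control males and 15375, 15525 and 14758 in the LDC males. Control female 1 stood far above the rest, the control groups overlapped, and the difference did not pass the test (-0.48 ± 0.21; adjusted p = 0.196).

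The 3 immunoproteasome subunits, which replace the standard catalytic subunits and shape the peptides shown on class I molecules, were called in every fit that left out 1 array. Psmb8 gave 4496, 1961 and 2389.5 in the control females, 2018, 1721 and 1459 in the LDC females, 1322, 1219 and 1115 in the control males and 1318, 1486 and 1309 in the LDC males. Psmb9 gave 3964, 1758 and 1447 in the control females, 1302, 1291 and 1109 in the LDC females, 799.7, 1012 and 772 in the control males and 975, 1060.2 and 1012 in the LDC males. Psmb10 gave 4564, 2577 and 2784 in the control females, 2589.9, 2487 and 1736 in the LDC females, 1895, 1262 and 1304 in the control males and 1782, 1557 and 1731 in the LDC males. For all 3 genes every control female lay above every control male, at 2.27-fold (-1.18 ± 0.23; adjusted p = 0.00568), 2.53-fold (-1.34 ± 0.27; adjusted p = 0.00686) and 2.19-fold (-1.13 ± 0.22; adjusted p = 0.00521). In Psmb9 the LDC females also lay above the LDC males and below the control females. A second, dimmer probe set of Psmb8 had the same sign between the control groups and was not called (-0.53; adjusted p = 0.519).

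The transcription factors Irf1, an activator induced early by interferon gamma, and Irf8, a factor of macrophages and dendritic cells, passed with less margin. Irf1 gave 2918, 1045 and 1977 in the control females, 1747, 1769.5 and 1642 in the LDC females, 1114, 979.8 and 817 in the control males and 1479.6, 1810.5 and 1494 in the LDC males. Control female 2 fell among the control males, so that the groups overlapped, and the difference was 1.89-fold (-0.92 ± 0.26; adjusted p = 0.0459). The call was lost in 11 of the 12 fits with an array dropped, that without control female 1 among them (highest adjusted p = 0.17). Irf8 gave 1105, 345 and 481 in the control females, 382, 309 and 229 in the LDC females, 189, 236 and 295 in the control males and 338, 369.9 and 334 in the LDC males. The control groups did not overlap, at 2.4-fold higher in control females (-1.27 ± 0.34; adjusted p = 0.0366). The call was lost in 8 of the 12 such fits, that without control female 1 among them (highest adjusted p = 0.132). A second probe set of Irf8 had the same sign and was not called (-1.46; adjusted p = 0.137). The chemokines Cxcl9 and Cxcl10 were not called (log2 differences -1.49 and -0.76; adjusted p = 0.186 and 0.296).

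**Figure D2:**
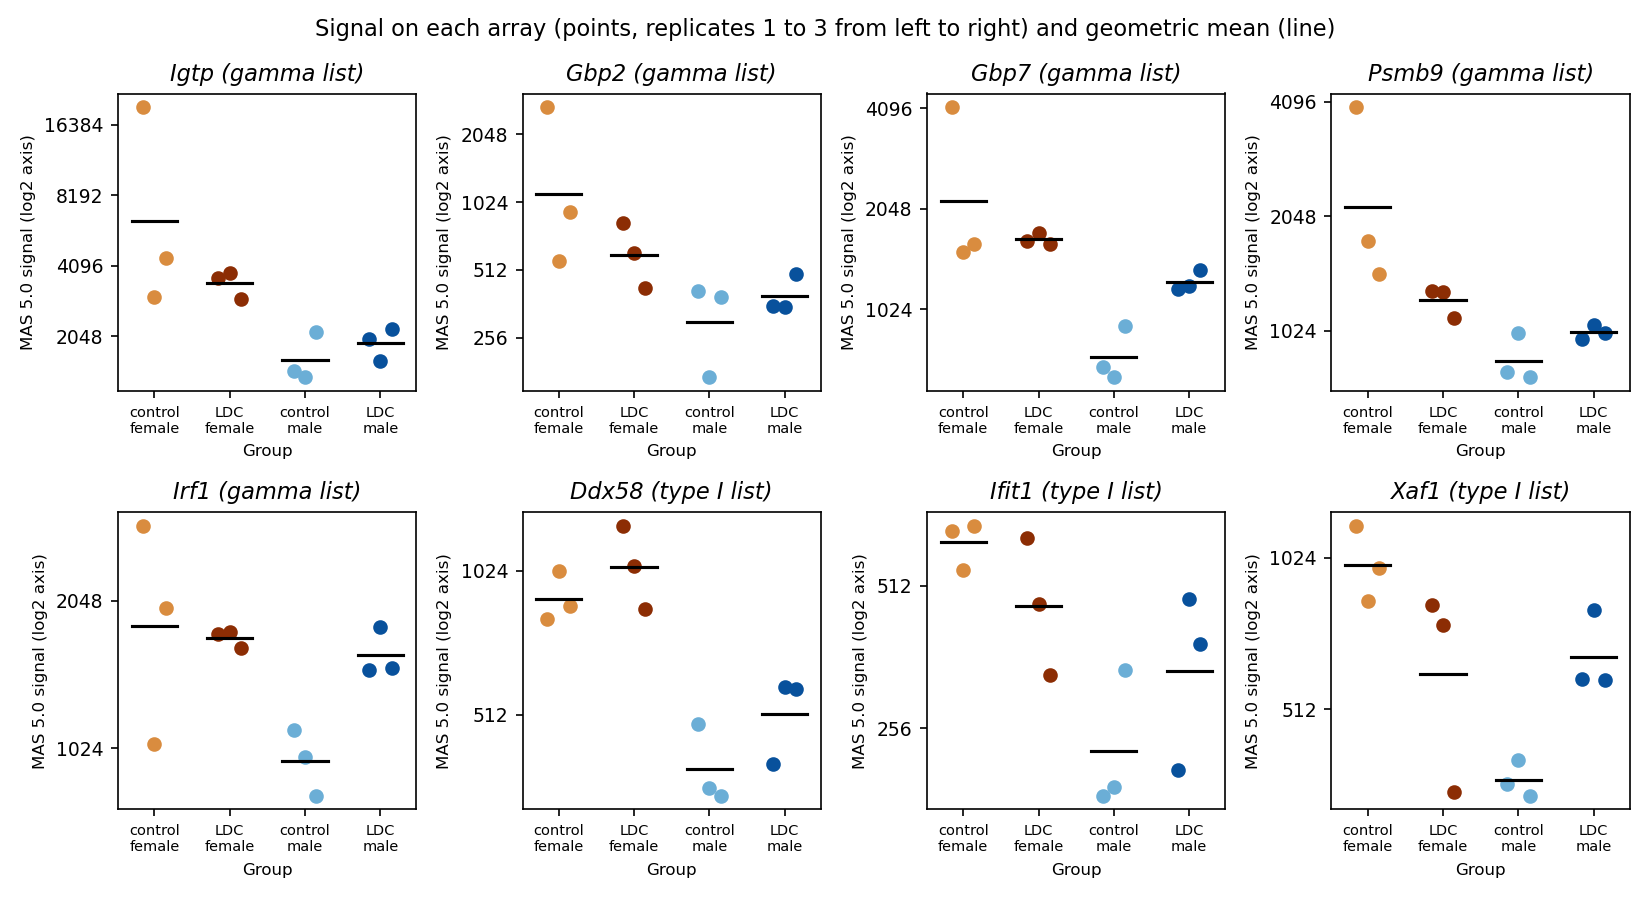
MAS 5.0 signal (log2 axis) on each array for 5 interferon gamma targets and 3 type I targets, by group; points are arrays and the line is the geometric mean of the 3. In Gbp7 and Xaf1 the control males lie below the LDC males, in Igtp all females lie above all males, and control female 1 is the highest point of each interferon gamma target.

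Among the type I targets, the cytosolic RNA sensors Ddx58 and Ifih1, which start an interferon response, were called. Ddx58, which encodes RIG-I, gave 812, 1022 and 864 in the control females, 1273, 1047 and 852 in the LDC females, 489, 359 and 346 in the control males and 403, 583 and 578 in the LDC males. Every female array lay above every male array, with 2.28-fold higher levels in control females (-1.19 ± 0.20; adjusted p = 0.00237). Ifih1, which encodes the sensor of long RNA MDA5, gave 2120.1, 2180.2 and 1997 in the control females, 2015, 2008 and 1578 in the LDC females, 1368, 1449 and 1145 in the control males and 1903, 1486 and 1747 in the LDC males. Its control groups did not overlap, at 1.6-fold (-0.67 ± 0.14; adjusted p = 0.00727). The other probe sets of Ddx58 had the same sign and were not called (-0.58 and -0.97). Neither call was lost when 1 array was left out, and neither gene had its highest signal in control female 1. The other sensors, Dhx58 and the RNA-dependent kinase Eif2ak2, were not called (-0.67 and 0.11; adjusted p = 0.326 and 0.863). By the probe sets used, Eif2ak2 was the sole member with its estimate toward males. Its dimmer probe sets lay toward females (-0.44 and -0.26; adjusted p = 0.353 and 0.727). A dimmer tested probe set of Dhx58 lay toward males (0.88; adjusted p = 0.383).

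The effectors that bind or cut viral RNA were called in part. Ifit1, which binds the 5′ ends of foreign RNA, gave 666, 553 and 685 in the control females, 644, 469 and 332 in the LDC females, 184, 193 and 340.0 in the control males and 209, 479 and 386 in the LDC males. The control groups did not overlap, at 2.75-fold higher in control females (-1.46 ± 0.32; adjusted p = 0.0131, and 0.0558 without control male 2). Ifit3, its partner, gave 937, 562 and 822 in the control females, 765, 830.1 and 491 in the LDC females, 272, 331 and 404 in the control males and 497, 529.7 and 496 in the LDC males. Again the control groups did not overlap, at 2.28-fold (-1.19 ± 0.23; adjusted p = 0.00617). Ifit2 had a larger estimate (-1.58 ± 0.51) with a wider spread and did not pass (adjusted p = 0.0757). Oas1a, which makes the oligoadenylate that activates RNase L, gave 1143, 524 and 1042 in the control females, 727, 676 and 559 in the LDC females, 484, 451 and 402 in the control males and 449, 724 and 528 in the LDC males. The control groups did not overlap and the difference was 1.92-fold (-0.94 ± 0.26; adjusted p = 0.0393). The call was lost in 7 of the 12 fits with an array dropped, that without control female 1 among them (highest adjusted p = 0.16). Its relatives Oasl1, Oasl2 and Oas2 were not called (adjusted p = 0.0699, 0.153 and 0.788).

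Usp18, the protease that removes ISG15 from proteins and dampens type I signalling, gave 1288, 855 and 948 in the control females, 801, 803 and 588 in the LDC females, 599, 329.7 and 472 in the control males and 561, 839 and 555 in the LDC males. The control groups did not overlap, at 2.24-fold higher in control females (-1.16 ± 0.24; adjusted p = 0.00836). Xaf1, a gene linked to cell death, gave 1188, 841 and 978 in the control females, 824, 754 and 350.2 in the LDC females, 363, 406 and 344 in the control males and 587, 805 and 584 in the LDC males. The control males and LDC female 3 were the lowest arrays, the control groups did not overlap, and control females were 2.68-fold higher (-1.42 ± 0.27; adjusted p = 0.00494). A second, dim probe set of Xaf1 had the opposite sign and was not called (1.58; adjusted p = 0.361). Parp14, an ADP-ribosyltransferase, gave 1419, 837 and 989 in the control females, 827, 882 and 561 in the LDC females, 424, 626 and 550.5 in the control males and 579, 731 and 628 in the LDC males. Its control groups did not overlap, at 2-fold (adjusted p = 0.0137), a call lost without control female 1 or control male 1 (highest adjusted p = 0.0617). A second, dimmer probe set of Parp14 had the same sign and was not called (-0.40; adjusted p = 0.714).

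The type I targets with the highest mean signal, Bst2, Ifi27 and Ifi35, were not called between the control groups. Bst2, which tethers virus particles to the cell, gave 4422, 3499.5 and 3898 in the control females, 3022, 3287 and 2340.1 in the LDC females, 3463, 3688 and 3758 in the control males and 3882, 4107 and 3462 in the LDC males. Ifi27 gave 5435, 4662 and 5496 in the control females, 4102, 4010.2 and 3778 in the LDC females, 4981, 5138 and 4543 in the control males and 4978, 5889.6 and 3506 in the LDC males. Ifi35 gave 4434, 3712 and 3826 in the control females, 3639.9, 3946 and 3096 in the LDC females, 2780.2, 3340.0 and 3727 in the control males and 3038, 2361 and 2454 in the LDC males. The control groups of all 3 overlapped, with log2 differences of -0.11, -0.09 and -0.29 (adjusted p = 0.684, 0.796 and 0.243). The 12 other type I targets, among them the transcription factors Stat2, Irf7 and Irf9 and the effectors Mx1, Rsad2 and Isg20, ranged from -1.58 to 0.11 and had adjusted p-values of 0.0699 or more.

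**Figure D3:**
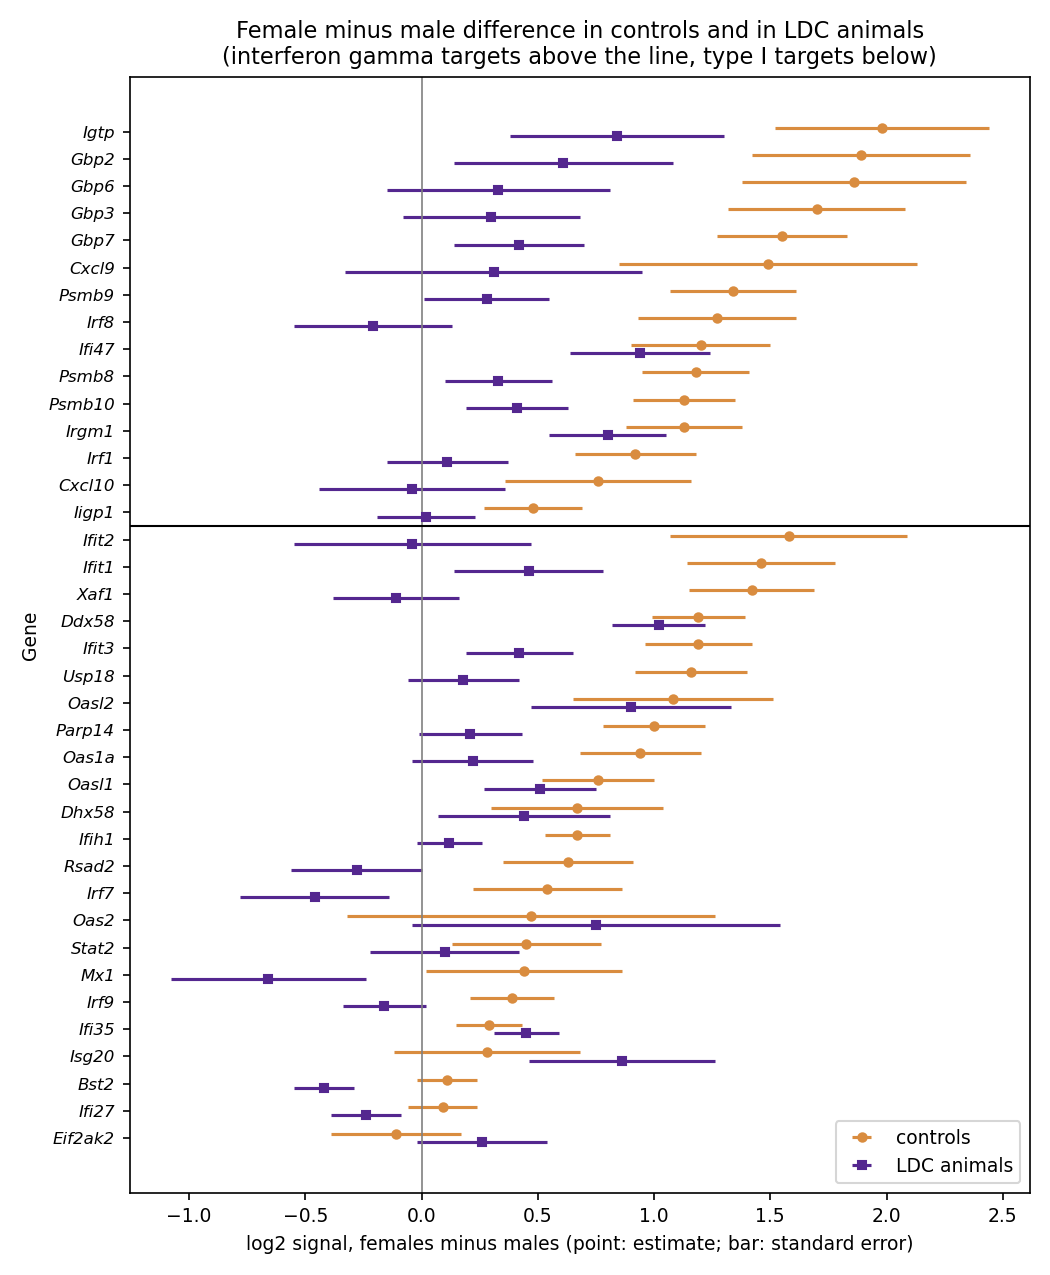
Log2 signal of females minus males for each of the 38 members in controls (circles) and in LDC mice (squares), with standard errors as bars. In controls 37 of 38 estimates lie on the female side with Igtp farthest out, and in LDC mice 28 of 38 lie there, most of them closer to 0.

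Markers of other cell types were measured beside the members. On each array the median log2 signal of a list was taken relative to the mean of each gene over the 12 arrays. For the interferon gamma targets it was 1.62, 0.07 and 0.48 in the control females, 0.29, 0.20 and -0.16 in the LDC females, -0.63, -0.70 and -0.45 in the control males and -0.27, -0.22 and -0.19 in the LDC males. The type I targets gave 0.59, 0.15 and 0.39, then 0.27, 0.27 and -0.20, then -0.29, -0.32 and -0.41, and -0.12, 0.22 and -0.13. Both lists were thus highest in control female 1 and lowest in the control males, over a wider range for interferon gamma targets, and the difference between the lists was not tested.

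The 10 macrophage and Kupffer cell markers, all tested, gave 1.15, -0.32 and 0.88 in the control females, 0.64, 0.06 and -1.72 in the LDC females, -0.41, -0.42 and -0.51 in the control males and 0.29, 0.48 and 0.02 in the LDC males. In 7 of the 10 every control female lay above every control male, 0 of 10 were called, and the median log2 difference was -1.01, or -0.68 without control female 1. Of 10 T and natural killer cell markers 6 were tested, with 1.62, 0.21 and 0.59 in the control females and -0.04, -0.95 and -0.34 in the control males, and 1 was called, the granule protease Gzmb (-1.88; adjusted p = 0.0449), a call lost without control female 1. Cd3e, Cd4 and Ncr1 were below the filter. Of 7 neutrophil markers 4 were tested, and S100a8, S100a9 and Ngp were higher in control females than in control males (adjusted p = 7.11e-05, 0.00611 and 0.00587). The remaining tested marker, Mpo, had its estimate toward males and was not called (0.27; adjusted p = 0.837). The 3 plasmacytoid dendritic cell markers tested had a median difference of -0.08 and their lowest value, -0.70, in control female 1, with 0 called. The part of these cells in the difference between the control groups was not tested. In LDC mice the estimates of all 10 macrophage markers lay on the male side (median 0.54), with 0 of 10 called and LDC female 3, at -1.72, the lowest array of the list. The T and natural killer cell markers had a median of -0.50 there, with 5 of 6 on the female side and 0 called. S100a8, S100a9 and Ngp were higher in LDC males (2.58, 2.23 and 1.42; adjusted p = 8.32e-06, 0.00135 and 0.012), with the call of Ngp lost in 2 of the 12 fits with an array dropped. The part of these cells in the difference among LDC mice was not tested.

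**Figure D4:**
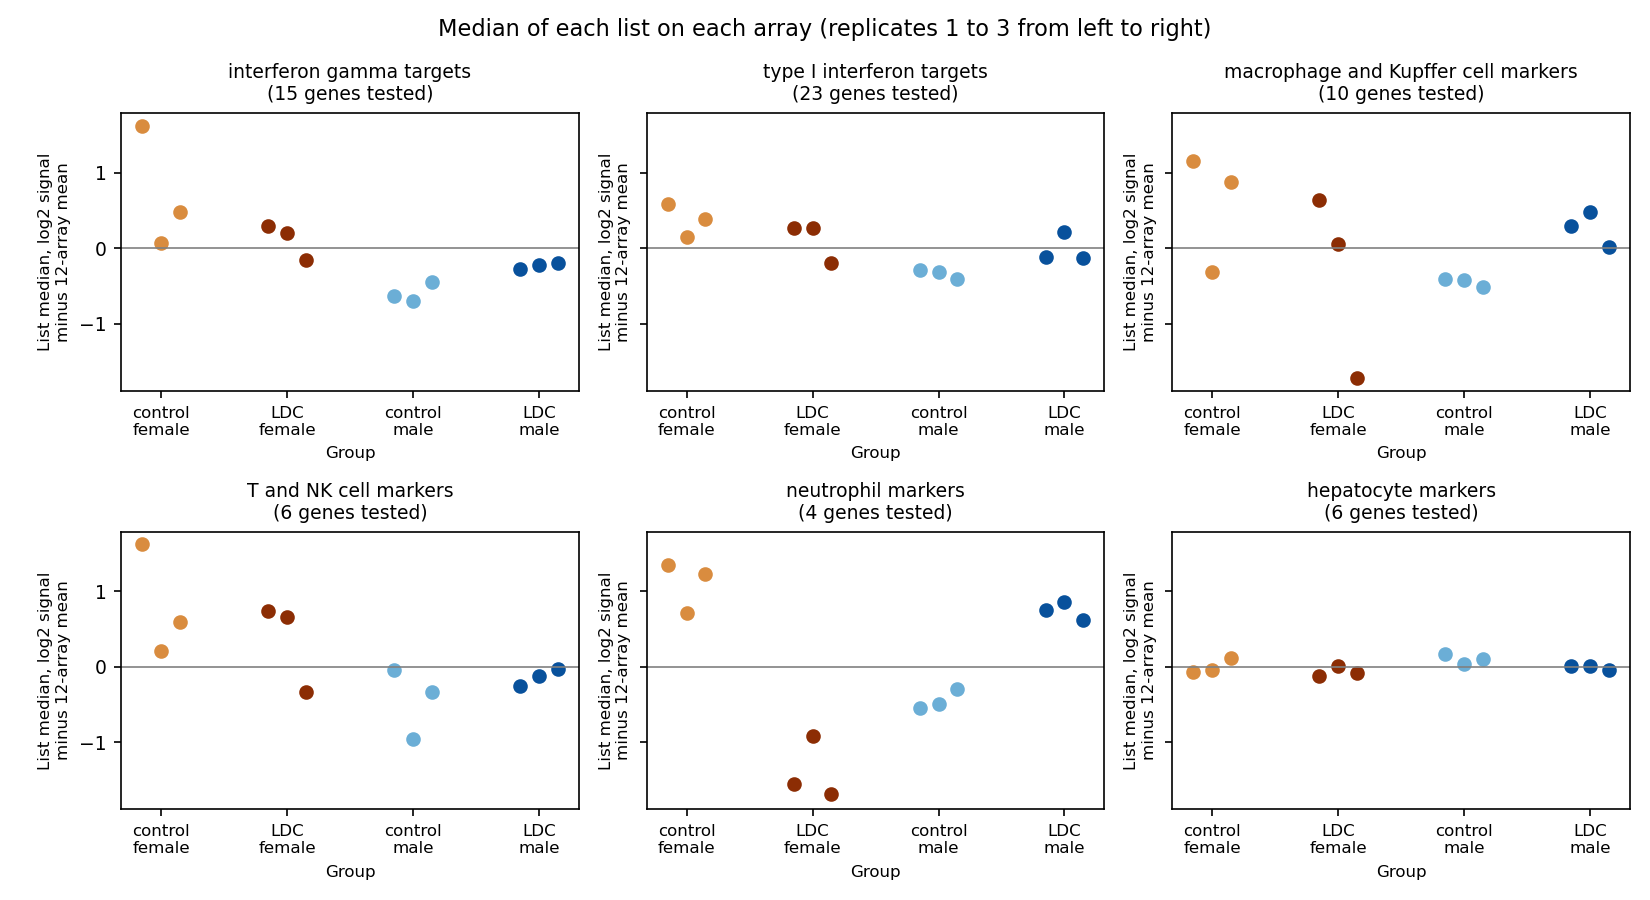
Median of 6 gene lists on each array, in log2 signal minus the mean of each gene over the 12 arrays, by group; points are arrays. The interferon gamma targets and the T and natural killer cell markers are both highest, at 1.62, in control female 1, the macrophage markers are lowest, at -1.72, in LDC female 3, and the hepatocyte markers stay between -0.12 and 0.17.

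Within the LDC mice 1 of the 38 members was called, Ddx58, higher in females at a log2 difference of -1.02 ± 0.20 (males minus females, SE; adjusted p = 0.00702), where 7.52% of all genes were called. The dimmer probe sets of Ddx58 did not share a sign there, with 0.46 on the male side and -0.48 on the female side. At an unadjusted p under 0.05 there were 7 of 38, against 21.9% of all genes. In 9 of 38 members, 4 type I and 5 interferon gamma targets, every LDC female lay above every LDC male, against 17.5% of all genes. The medians were -0.33 for the interferon gamma targets, -0.21 for the type I targets and -0.05 over all genes. Irgm1 and Ifi47 had the smallest p-values among the interferon gamma targets (-0.80 ± 0.25 and -0.94 ± 0.30; adjusted p = 0.0805 and 0.0828), and Igtp had -0.84 ± 0.46 (adjusted p = 0.357). For Xaf1, Irf8 and Bst2 the estimate lay on the male side (0.11, 0.21 and 0.42; adjusted p = 0.877, 0.815 and 0.0753). Without control female 1, 3 members were called, where 8.42% of all genes were called. Without LDC male 1 or LDC male 3, 2 each were called, and with median centring or array weights 4, with the share of all genes not counted there. With the methods' t-test 0 members were called, against 193 of all 12820 genes.

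The exposure itself gave no call on any member. In males 0 of 38 passed, against 0.374% of all genes, and in females 0 of 38, against 0.164%. For the mean of both effects 0 of 38 passed, against 0.039%. Without control female 1, Gbp7 was called in males. At an unadjusted p under 0.05, 6 members stood in males, 5 with higher signal in LDC mice and 1 with lower, against 11.5% of all genes, and 10 in females, all with lower signal in LDC mice, against 9.92%. For the mean effect there were 2, against 9.78%. By the methods' t-test 8 members in males and 1 in females had an unadjusted p under 0.05, against 10.1% and 7.36% of all genes, and 0 remained after adjustment.

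The estimates had opposite signs in the sexes for most members. In males 30 of 38 were positive, where 48.8% of all genes were, and in females 4 of 38 were positive, where 47.8% of all genes were. The median log2 fold change in males was 0.32 for the type I targets and 0.38 for the interferon gamma targets, against -0.01 over all genes. In females it was -0.39 and -0.71, against -0.02. Every LDC male lay above every control male in 11 of 38 members, 6 type I and 5 interferon gamma targets (9.03% of all genes), and every LDC female lay below every control female in 8, 5 type I and 3 interferon gamma targets (7.64% of all genes).

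**Figure D5:**
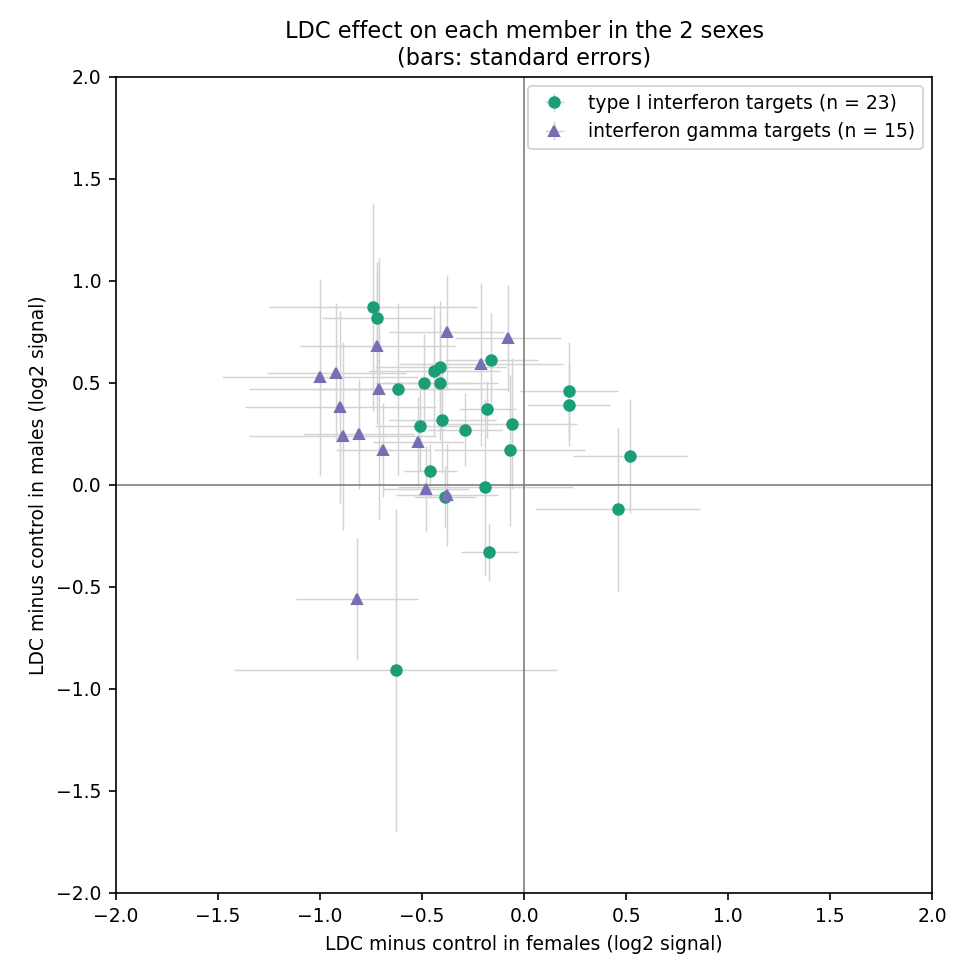
Log2 difference of LDC minus control in females (horizontal axis) and in males (vertical axis) for the 23 type I targets (circles) and 15 interferon gamma targets (triangles), with standard errors. Most members lie at the upper left, where the estimate is negative in females and positive in males, with median estimates of -0.39 and 0.32 for type I and -0.71 and 0.38 for interferon gamma targets.

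The female medians moved with single arrays. Without control female 1 they were -0.19 for the type I targets and -0.17 for the interferon gamma targets, and without LDC female 3, the array with low macrophage markers, -0.09 and -0.47. In males the median of the interferon gamma targets ran from 0.17 without control male 2 to 0.57 without control male 3. Along with the members, the macrophage markers had a median of 0.71 in males and -0.83 in females, or -0.53 without control female 1, with 0 of 10 called, and in 8 of 10 every LDC male lay above every control male. Of the neutrophil markers, S100a8 rose in LDC males (1.43; adjusted p = 0.0178), a call lost without control male 2 or any LDC male (highest adjusted p = 0.0895), and S100a8, S100a9 and Ngp fell in LDC females (-3.17, -2.75 and -1.75; adjusted p = 2.06e-05, 0.00357 and 0.0404). The call of Ngp was lost in 9 of the 12 fits with an array dropped, that without control female 1 among them (adjusted p = 0.124), and with eBayes without a trend 1 of the 3 calls was left. Of 5 B and plasma cell markers 3 were tested. The plasma cell gene Jchain fell in LDC females (-2.36; adjusted p = 0.0026). Its call was lost with each sex fitted alone, with eBayes without a trend and with the methods' t-test. Cd79b and Ms4a1 were not called in females (-0.48 and -0.14; adjusted p = 0.8 and 0.938). For LDC, 0 endothelial, plasmacytoid dendritic cell or hepatocyte markers were called. The part of these cells in the LDC estimates of the members was not tested.

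The members with the smallest unadjusted p in males were Xaf1, Ifih1 and Ifit3 among the type I targets and Irf1, Gbp7 and Ifi47 among the interferon gamma targets. In Xaf1 the LDC males, at 587, 805 and 584, all lay above the control males, at 363, 406 and 344 (0.82 ± 0.27; unadjusted p = 0.00887, adjusted p = 0.306). The second, dim probe set of Xaf1 had LDC estimates of the opposite sign in each sex, -1.61 in males and 1.24 in females. The LDC males of Gbp7, Irf1, Ifit3 and Ifih1 likewise lay above their control males. The estimates were 0.75 ± 0.28 for Gbp7 (adjusted p = 0.374), 0.72 ± 0.26 for Irf1 (adjusted p = 0.36), 0.61 ± 0.23 for Ifit3 (adjusted p = 0.384) and 0.37 ± 0.14 for Ifih1 (adjusted p = 0.362). Of the 8 members with a negative estimate in males, Ifi35 was the 1 with an unadjusted p under 0.05 (-0.33 ± 0.14; adjusted p = 0.435), with overlapping groups. Ifi47 had an estimate in the same direction (-0.56 ± 0.30; adjusted p = 0.553), and its groups overlapped too. The other 14 members, which include both chemokines, had estimates in males from -0.91 to 0.87 for type I and from 0.47 to 0.59 for interferon gamma targets, with adjusted p of 0.537 or more.

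In females the smallest p-values belonged to Bst2, Xaf1 and Ifi27 and to Psmb9, Psmb8 and Ifi47. The LDC females lay below all control females in Bst2 (-0.46 ± 0.13; unadjusted p = 0.00314, adjusted p = 0.247), Xaf1 (-0.72 ± 0.27; adjusted p = 0.433), Ifi27 (-0.39 ± 0.15; adjusted p = 0.447), Psmb9 (-0.81 ± 0.27; adjusted p = 0.354) and Ifi47 (-0.82 ± 0.30; adjusted p = 0.425). In Psmb8 LDC female 1 reached above control female 2 (-0.69 ± 0.23; adjusted p = 0.368). The other 12 type I targets ran from -0.74 to 0.52 in females, and Cxcl9 and Cxcl10 from -0.71 to -0.21 (adjusted p of 0.615 or more).

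Whether the LDC effect differed between the sexes is the same contrast as whether the sex difference changed with LDC. Of the 38 members 0 were called on it, against 0.226% of all genes, so a change of the sex difference with LDC was not shown by this test. At an unadjusted p under 0.05 there were 19, all with the estimate higher in males, against 12.2% of all genes. Of the 19, 8 were at least 2-fold. Of all 12820 genes, 399 met both limits with the estimate higher in males and 180 with it higher in females. The estimate was positive in 34 of 38 members, in all 15 interferon gamma targets and in 19 of 23 type I targets, where 50.7% of all genes were positive, with medians of 1.06 and 0.55. Every such estimate contains the control females, and without control female 1 the medians were 0.49 and 0.44. Xaf1 had the smallest p (1.54 ± 0.38; unadjusted p = 0.00117, adjusted p = 0.161), though its dim second probe set had the opposite sign in each sex. Among the type I targets Usp18 (0.98 ± 0.34; adjusted p = 0.35) and Bst2 (0.53 ± 0.18; adjusted p = 0.354) followed. Among the interferon gamma targets they were Irf8 (1.47 ± 0.49; adjusted p = 0.327), Gbp7 (1.13 ± 0.40; adjusted p = 0.355) and Psmb9 (1.06 ± 0.38; adjusted p = 0.362). Ddx58 and Irgm1, with females above males in both exposure groups, had estimates of 0.17 ± 0.29 and 0.33 ± 0.36.

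The genes upstream of the members were measured beside them. Of 29 ligands, receptors and signalling genes 20 were tested, and 0 were called for LDC in males, in females or in the difference. The receptor genes Ifnar1, Ifnar2, Ifngr1 and Ifngr2 and the kinases Jak1, Jak2 and Tyk2 were not called in any comparison, and Ifnar2, for example, gave 4357, 3979.8 and 4230.2 in the control females, 3812, 4498 and 4165 in the LDC females, 3831, 4399.5 and 4051 in the control males and 3912, 3593 and 4245 in the LDC males. Its groups overlapped throughout. Ifng itself was below the filter, at 95.7, 28.0 and 34.7 in the control females and from 4.1 to 39.0 on the other arrays. Ptpn6, the phosphatase SHP-1 of blood cells, had the smallest p in males (0.84; adjusted p = 0.11) and in the difference (1.30; adjusted p = 0.0838) and was higher in control females (-1.13 between males and females; adjusted p = 0.00229). Stat3, a factor of the acute phase response, had the smallest p in females (-0.65; adjusted p = 0.22). Il10rb was also higher in control females (-0.88; adjusted p = 0.0456), a call lost in 9 of the 12 fits with an array dropped (adjusted p = 0.185 without control female 1), while among LDC mice Irf2 was higher in males (0.64; adjusted p = 0.0389) and Irf3 in females (-0.45; adjusted p = 0.0279), each lost in 6 of the 12 fits (highest adjusted p = 0.158 and 0.0985).

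Of 14 genes of nucleic acid sensing 10 were tested, with 0 called for LDC. Zbp1, a sensor of left-handed nucleic acid, gave 1133, 373 and 601 in the control females, 260.1, 316 and 319 in the LDC females, 114, 183 and 188 in the control males and 220.1, 179.8 and 179 in the LDC males. All control females lay above all control males, the sole call of this list between the control groups (-2.01; adjusted p = 0.00199), and the gene had the smallest p in females (-1.09; adjusted p = 0.306) and in the difference (1.38; adjusted p = 0.346). Adar, the RNA-editing enzyme, had the smallest p in males (0.42; adjusted p = 0.458).

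Of 30 other interferon-induced genes 25 were tested, and 13 were higher in control females and 0 in control males, where 9.42% of all genes were called and 5.59% were higher in females. Without control female 1, 6 of the 13 were called, as were 6 with eBayes without a trend, where 6.26% and 4.7% of all genes were called. Nmi, an interferon-induced adaptor, gave 2351, 2128 and 1994 in the control females, 2066, 1893 and 1677 in the LDC females, 1037, 975 and 941 in the control males and 1092, 1195 and 949 in the LDC males. Females lay above males in both exposure groups and the gene was called in both (-1.13 and -0.80; adjusted p = 7.56e-05 and 0.0012), as was the antiviral gene Samd9l (-1.36 and -0.70; adjusted p = 0.000653 and 0.0482), whose call among LDC mice was lost in 7 of the 12 fits with an array dropped (highest adjusted p = 0.178). Ifitm1, which blocks virus entry at membranes, was the sole gene of the interferon lists tested here whose LDC effect differed between the sexes. It gave 2263, 1499 and 1919.6 in the control females, 1461, 1169.9 and 815 in the LDC females, 856, 759 and 689 in the control males and 1259, 1425 and 1269 in the LDC males. The LDC males lay above and the LDC females below all controls of their sex, with estimates of 0.78 in males (adjusted p = 0.145) and -0.74 in females (adjusted p = 0.208). The difference of 1.52 ± 0.28 passed (adjusted p = 0.0455). That call was lost in 10 of the 12 fits with an array dropped (highest adjusted p = 0.126, and 0.0768 without control female 1). Quantile normalization and eBayes without a trend lost it too. Cxcl11, a chemokine of the Cxcl9 group, had the smallest p in males (0.97; adjusted p = 0.0784).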

How the data were processed

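Total liver RNA was hybridised to Affymetrix Mouse Genome 430 2.0 arrays, 12 in all, 3 in each of 4 groups. The deposited values are intensity values on a linear scale, made by the authors with the MAS 5.0 algorithm in GeneSpring from single arrays, with no log transform. All arrays had been scaled to a trimmed mean of 500.0, and median signals ran from 95.1 to 110.3. Of the 45101 probe sets, 34945 were given to 1 gene by the platform annotation, 932 to several and 9160 to none, and 64 were controls. A shared extraction or scan day is not given in the sources used here. Log2 signals were fitted with limma 3.58.1 in R 4.3.3 (group means model over all 12 arrays, eBayes with an intensity trend, residual df 8, prior df 6.35) after probe sets with a mean log2 signal under the 40th percentile (5.6, a signal of 48.6) were dropped. P-values were adjusted by Benjamini-Hochberg over 27022 probe sets. Counts over all genes used the brightest probe set of each gene. Tables and figures were made with Python 3.11.15 and matplotlib 3.10.9.

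The 42 members, the pathway lists and the marker lists were chosen with earlier results of these data known. Named members were those called in any comparison and, in each list, the 3 with the smallest p for LDC in males, in females and in the difference and the 3 brightest. Genes of the wider lists were named by adjusted p or, up to 3 per list, by smallest p. The alternatives were no filter or other percentiles, log2 of the signal plus 32, quantile normalization, median centring, array weights, eBayes without trend, each sex fitted alone, other choices of probe set, the paper's call rule of 2-fold and unadjusted p under 0.05, the methods' t-test, the replicate number as a block and leaving out each array. The paper names the t-test for body composition and metabolic results, and for the arrays it gives a p-value limit without a test. The fit was tested on simulated data. The groups share replicate numbers, but arrays with the same number did not deviate together (correlations from -0.028 to 0.059), so the numbers were not taken as pairs.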

Additional observations from a re-analysis of the deposited data

Results flagged for a closer look

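Ifitm1, an interferon-induced membrane gene outside the 42 members, was the sole gene of the interferon lists examined whose response to LDC differed between males and females by the test of the difference itself. The log2 effect was 0.78 in males and -0.74 in females, and the difference was 1.52 ± 0.28 (SE; limma, adjusted p = 0.0455), with all 3 LDC males above the control males and all 3 LDC females below the control females. Of all genes, 0.226% were called on this difference. The call was lost in 10 of the 12 fits with an array dropped, with quantile normalization and with eBayes without a trend (highest adjusted p = 0.267). Neither effect passed the test alone.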

How the results depend on the processing

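Between the control groups, where 20 members were called, eBayes without a trend gave 9, 4 interferon gamma and 5 type I targets, against 4.7% of all genes. The methods' t-test gave 0, against 4 of all 12820 genes. Leaving out 1 array gave from 12 to 24, with 14 without control female 1, against 6.26% of all genes. With the replicate number as a block 19 were called, against 8.81% of all genes, and in the other comparisons the block changed no count of members. Among LDC mice the count of 1 became 4 with median centring, 4 with array weights and 0 with the methods' t-test, which called 193 of all 12820 genes. It ran from 1 to 3 with 1 array left out, with 3 without control female 1, against 8.42% of all genes. For LDC in males 1 member, Gbp7, was called without control female 1, so the range with 1 array left out was 0 to 1. For the difference, a rule of at least 2-fold and unadjusted p under 0.05 gave 8, all positive. Of all 12820 genes it gave 399 with a positive and 180 with a negative estimate. The median LDC effect with 1 array left out ran from 0.27 to 0.48 (type I) and 0.17 to 0.57 (interferon gamma) in males, and from -0.51 to -0.09 and -0.96 to -0.17 in females. For 40 pairs of a named gene and a comparison, 833 of 925 refits kept direction and call, 91 lost the call, 1 gained it and 0 reversed. Pairs with no call in the main fit are included and had none to lose, so this total does not measure how stable the calls were. Median centring moved the median of all genes to -0.11 between the control groups and to -0.13 among LDC mice. The cause of these changes was not tested. Only 3 arrays a group limit what can be seen, and the member Mx2 and the ligand gene Ifng were below the filter on low signal.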
